A study of Homo sapiens with 12 samples.

Results

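The genes that make, sense and move cholesterol, together with those that make and desaturate fatty acids, were followed through 12 libraries of polyadenylated RNA from TC71, an established human Ewing sarcoma cell line. A list of 34 gene symbols was matched through Ensembl identifiers to a count table of 21569 genes. A row was found for 33 of them, and all 33 passed the filter on low counts that left 17084 genes for testing. ACACA, which encodes acetyl-CoA carboxylase 1, is not analysed here because no row was matched to it. By role, 7 of the tested genes act in the mevalonate pathway, 11 between squalene and cholesterol, 5 in sterol sensing, 3 in sterol transport and 7 in fatty acid synthesis.

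Cholesterol is built from acetyl-CoA through mevalonate and isoprenoid units to squalene, which is closed into lanosterol and trimmed step by step to cholesterol. Fatty acid synthesis draws on the same acetyl-CoA. Transcription of both pathways is driven by the membrane-bound factors SREBP2 and SREBP1, encoded by SREBF2 and SREBF1. When membrane sterol is low, SCAP escorts these factors from the endoplasmic reticulum to the Golgi, where they are cut and released to the nucleus. When sterol is high, INSIG proteins hold SCAP back. Oxysterols also activate the LXR receptors, which raise transcription of the cholesterol exporter ABCA1 and of SREBF1.

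The study compared wild-type TC71 cells with ID2 knockout lines, clone 1 and clone 2, and with a line made from clone 2 that is labelled as an ID2 rescue. Each of these 4 groups has 3 libraries. ID2 cannot bind DNA on its own. It pairs with E proteins, a family of basic helix-loop-helix transcription factors, and so takes them off their DNA sites. The medium of all groups was DMEM with 10% FBS (fetal bovine serum), a source of lipoprotein cholesterol, and the rescue cells carry the knockout of clone 2 as well. Each knockout line is a single clone, so a difference from wild-type cannot be told apart from a property of that clone. The labels do not say how ID2 was disrupted or put back. They also do not state whether libraries of a group are separate cultures. The p-values therefore refer to the spread between these libraries alone, and that spread may be technical.

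Totals ran from 19420408 to 29748084 counts per library. Levels are given in CPM (counts scaled by library size and TMM factor), and errors are SDs (n = 3 libraries). ID2 itself stood at 77.9 ± 0.657 CPM in wild-type. Its level was 18.1 ± 0.777 in clone 1, 50.9 ± 3.16 in clone 2 and 41.5 ± 0.537 in the line labelled rescue. ID2 RNA was thus not higher in the rescue line than in clone 2, and these 3 libraries are called the libraries labelled rescue. All 8 Ewing sarcoma markers checked were in the table, with summed levels of 1840 to 1860 CPM in wild-type, against 1620 to 1670 in clone 1 and 1920 to 2010 in clone 2, with 1730 to 1770 in the libraries labelled rescue. Of 6 epithelial markers 5 were in the table, none at 0, and their sum was 115 to 122 CPM in wild-type, against 884 to 951 in clone 1 and 153 to 191 in clone 2, with 76.9 to 86.9 in the libraries labelled rescue. KRT8 made up most of the sum in clone 1, at 504 CPM. The blood marker PTPRC and the endothelial marker CDH5 stayed at or below 0.25 CPM in every library. In bulk RNA, fewer cells of a type and less RNA per cell cannot be told apart.

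In both knockout clones most genes of cholesterol and fatty acid synthesis had lower RNA than in wild-type. In clone 1, 27 of the 33 genes fell, 2 rose and 4 did not pass an adjusted p of 0.05 in the edgeR quasi-likelihood test. Over all 17084 genes tested 30.7% were called lower and 30.8% higher in that comparison. In clone 2, 26 of the 33 fell, 1 rose and 6 did not pass, where 30.6% of all genes were called lower and 31.5% higher. The members are expressed above the average gene, and among the 10865 genes with a mean of at least 5 CPM 40.8% were called lower and 31.5% higher in clone 1, and 41.5% and 29.6% in clone 2. The median log2 fold change of the 33 genes was -0.37 in clone 1 and -0.38 in clone 2, against 0.01 in each over all genes tested. Both comparisons use the same 3 wild-type libraries, so their values are set side by side here without a count of agreement. The rise of epithelial markers in clone 1 went with these changes, and its part in them was not tested.

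The calls of 3 genes in clone 1 rested on particular libraries. The STARD4 call was lost without wild-type replicate 3 (adjusted p = 0.143), clone 1 replicate 1 (adjusted p = 0.0865) or clone 1 replicate 2 (adjusted p = 0.0829). The FASN call was lost without wild-type replicate 2 (adjusted p = 0.116) or clone 1 replicate 3 (adjusted p = 0.135). The ACSS2 call was lost without wild-type replicate 2 (adjusted p = 0.0595) or clone 1 replicate 2 (adjusted p = 0.114). TM7SF2, not called in clone 1, was called lower without clone 1 replicate 1 (adjusted p = 0.0361), and ACSS2, not called in clone 2, was called lower without clone 2 replicate 3 (adjusted p = 0.0473).

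**Figure D1:**
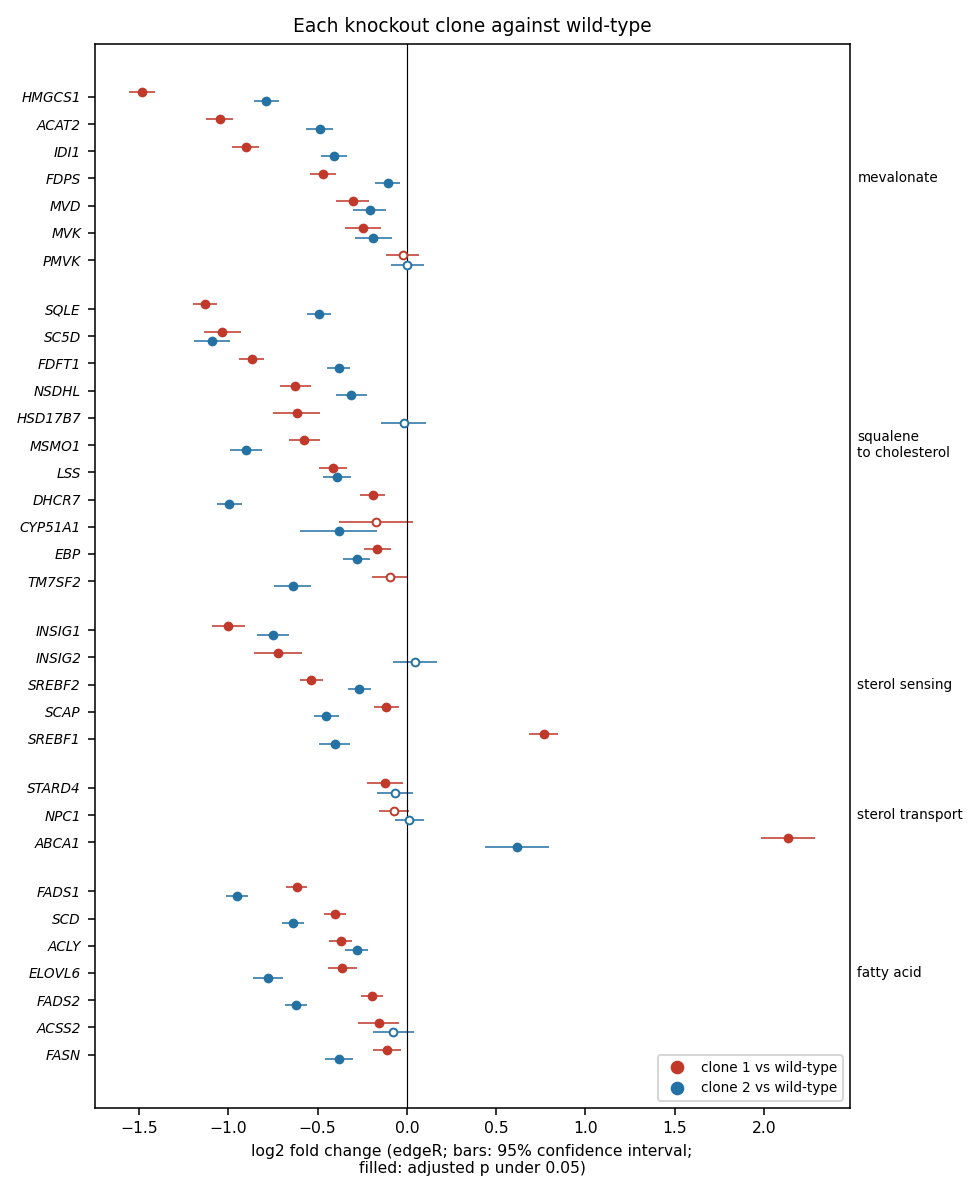
Log2 fold change of the 33 genes in knockout clone 1 and clone 2 against wild-type, grouped by role. Points are edgeR estimates, bars are 95% confidence intervals and filled points have an adjusted p under 0.05. In clone 1 the lowest point is HMGCS1 at -1.48 and the highest is ABCA1 at 2.14, while clone 2 spans -1.09 for SC5D to 0.62 for ABCA1.

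The mevalonate pathway fell in 6 of its 7 genes in clone 1 and in 6 of 7 in clone 2, with PMVK as the gene not called in either. The median log2 fold change of the 7 genes was -0.47 in clone 1 and -0.21 in clone 2. HMGCS1, the cytosolic synthase that condenses acetyl-CoA and acetoacetyl-CoA to HMG-CoA, lies on chromosome 5 (chr5:43289395-43313512 in hg38). Its 3 libraries read 238, 245 and 241 CPM in wild-type, 87.4, 86.1 and 85.0 in clone 1, 142, 145 and 132 in clone 2, and 137, 139.7 and 135 in the libraries labelled rescue. Every wild-type library was above every knockout library, and clone 1 was the lowest group. The log2 fold change against wild-type was -1.48 (SE 0.0356, adjusted p = 1.89e-31) in clone 1 and -0.79 (SE 0.0341, adjusted p = 2.07e-22) in clone 2. HMGCS1 was 0.70 higher on the log2 scale in clone 2 than in clone 1 (adjusted p = 6.13e-20).

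ACAT2, the cytosolic thiolase that supplies acetoacetyl-CoA, was also lowest in clone 1. It stood at 233 ± 10.2 CPM in wild-type, against 113 ± 1.57 in clone 1 and 166 ± 8.69 in clone 2, with 177 ± 4.22 in the libraries labelled rescue. Its log2 fold change was -1.05 in clone 1 (adjusted p = 1.62e-25) and -0.49 in clone 2 (adjusted p = 4.68e-15). IDI1, which interconverts the isoprenoid units, fell by 0.90 in clone 1 and by 0.41 in clone 2 on the log2 scale. FDPS, which joins these units into farnesyl pyrophosphate, fell by 0.47 and by 0.11, and its smaller fall in clone 2 was not called with upper quartile scaling (adjusted p = 0.36). The kinases and the decarboxylase that act on mevalonate moved little. MVK had log2 fold changes of -0.25 and -0.19, MVD of -0.30 and -0.21, and PMVK of -0.02 and 0.00, which did not pass. Exons of TCP1, SOD2 and SOD2-OT1 on the other strand cover 52.3% of the exon bases of ACAT2, and other genes' exons on that strand cover 15.0% of HMGCS1, 14.8% of IDI1 and 18.6% of FDPS. Since the strand setting of the counting is not given in the sources used here, reads of these partners cannot be told apart from the genes' own.

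Between squalene and cholesterol, 9 of 11 genes fell in clone 1 and 10 of 11 in clone 2, and none rose. The median log2 fold change was -0.57 in clone 1 and -0.39 in clone 2. SQLE, the squalene epoxidase that catalyses the committed oxidation of squalene, read 872, 824 and 892 CPM in wild-type, 398, 388.5 and 395 in clone 1, 619.5, 581 and 641 in clone 2, and 556, 576 and 579 in the libraries labelled rescue. The wild-type libraries did not overlap those of any other group, and clone 1 was again lowest. SQLE fell by 1.13 on the log2 scale in clone 1 (SE 0.0339, adjusted p = 3.76e-28) and by 0.49 in clone 2 (SE 0.0333, adjusted p = 2.96e-16). FDFT1, which forms squalene, fell from 437 ± 11.9 CPM in wild-type to 239 ± 9.92 in clone 1 and 335 ± 9.42 in clone 2.

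MSMO1, SC5D and DHCR7, which act later, did not keep that order between the clones. MSMO1, the C4-methyl sterol oxidase, read 122, 114 and 128 CPM in wild-type, 82.0, 79.6 and 83.9 in clone 1, 62.0, 66.2 and 67.9 in clone 2, and 50.1, 56.5 and 55.8 in the libraries labelled rescue. Here clone 2 was below clone 1 with no overlap, by 0.33 on the log2 scale (adjusted p = 8.74e-08). Against wild-type MSMO1 fell by 0.57 in clone 1 and by 0.90 in clone 2. SC5D, the lathosterol oxidase, read 70.0, 64.6 and 71.8 CPM in wild-type, 30.7, 35.2 and 34.7 in clone 1, 32.0, 32.0 and 33.0 in clone 2, and 27.1, 27.3 and 28.7 in the libraries labelled rescue. It fell by 1.03 in clone 1 (adjusted p = 4.77e-21) and by 1.09 in clone 2 (adjusted p = 1.79e-21). Its difference between the clones was -0.06 with a 95% interval of -0.17 to 0.05 (adjusted p = 0.364).

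DHCR7, which catalyses the last reduction of 7-dehydrocholesterol to cholesterol, had the largest difference between the clones among the 18 sterol synthesis genes. It read 291, 294 and 279.9 CPM in wild-type, 265, 244 and 248 in clone 1, 147, 145 and 141 in clone 2, and 118, 121 and 125 in the libraries labelled rescue, and no group overlapped another. DHCR7 fell by 0.19 on the log2 scale in clone 1 (SE 0.0337, adjusted p = 4.67e-06) and by 0.99 in clone 2 (SE 0.0351, adjusted p = 2.94e-25). The difference between the clones was -0.80 (adjusted p = 1.58e-22). The remaining 6 members of this stretch had smaller changes than DHCR7 in clone 2. NSDHL had a log2 fold change of -0.63 in clone 1 and -0.31 in clone 2, LSS, which forms lanosterol, of -0.41 and -0.39, and EBP, the sterol isomerase, of -0.17 and -0.28. HSD17B7, a 3-keto reductase, fell by 0.62 in clone 1 and was not called in clone 2 at -0.02 (adjusted p = 0.807). TM7SF2, a C14 reductase, was not called in clone 1 at -0.10 (adjusted p = 0.0854) and fell by 0.64 in clone 2. CYP51A1, the lanosterol demethylase, had only 7.95 CPM in wild-type, and its values of -0.17 in clone 1 (adjusted p = 0.146) and -0.38 in clone 2 (adjusted p = 0.002) are uncertain, since 79.4% of its exon bases lie under other annotated genes of the same strand.

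Promoters of the listed genes, whether or not they fell, were searched for letters that SREBP and its partner factors are known to use. RefSeq gave the 250 bases before each of 41 starts of 30 of the 34 genes (GRCh38.p14), with no entry for ACAT2, FDFT1, FASN and SQLE. Some genes have more than 1 start, and a gene was counted for a motif if any of its starts had it. The 30 include ACACA, which has no matched counts. The classical sterol response element was searched as TCACNCCAC on both strands. It was found in 1 of the 30 genes, SREBF2, 133 bases before the start, against 1.09% of the 27305 genes in the RefSeq table. CCAAT, the letters of the NF-Y box, was found in 20 of the 30, against 37.0% of genes, and GGGCGG, the letters of the Sp1 box, in 29 of the 30, against 46.2%. CAGGTG, an E-box of the kind that E proteins bind, was found in 7 of the 30, against 20.6%. The shares beside these counts are over all genes of the RefSeq table, expressed or not, whereas the members are expressed above the average gene. The 2 sets are therefore not matched, and the shares do not show a trait particular to these genes. None of these 4 motifs contains another, a match is not a bound site, and no binding was measured here. The stretches below are shown because they hold the SREBF2 match (chr22:41832962-41832991, + strand), CCAAT letters of 4 genes that fell in both clones, and promoter bases of ABCA1, which rose. Apart from SREBF2, each is the longest part of a 250-base promoter that lies outside annotated exons. They come from MSMO1 (chr4:165327419-165327622, + strand), NSDHL (chrX:152830813-152830966, + strand), HMGCS1 (chr5:43313513-43313662, - strand), DHCR7 (chr11:71448436-71448643, - strand) and ABCA1 (chr9:104928238-104928405, - strand). CCAAT matches outside the printed parts are not shown, so 3 of 4 are printed for MSMO1, 4 of 5 for NSDHL and 1 of 2 for HMGCS1. HMGCS1 and DHCR7 each have a further start whose 250 bases hold no CCAAT. Capitals mark TCACNCCAC in SREBF2 and CCAAT, or ATTGG for the other strand, in the rest. ABCA1 has neither. The printed genes do not stand for the whole list. FADS1, FADS2, ELOVL6 and SCAP fell in both clones and had no CCAAT in the 250 bases. STARD4, ACSS2 and HSD17B7 had CCAAT and were not called in clone 2. TM7SF2 also had CCAAT and was not called in clone 1. A link between CCAAT and the change in RNA was not tested.
SREBF2: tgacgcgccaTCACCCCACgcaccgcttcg
MSMO1: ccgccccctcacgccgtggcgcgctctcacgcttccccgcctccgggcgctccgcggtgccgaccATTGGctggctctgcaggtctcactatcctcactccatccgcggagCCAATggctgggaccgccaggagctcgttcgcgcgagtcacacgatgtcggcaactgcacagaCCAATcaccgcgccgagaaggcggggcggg
NSDHL: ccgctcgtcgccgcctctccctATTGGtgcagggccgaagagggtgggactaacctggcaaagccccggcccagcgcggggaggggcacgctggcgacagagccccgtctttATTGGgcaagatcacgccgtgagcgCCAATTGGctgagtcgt
HMGCS1: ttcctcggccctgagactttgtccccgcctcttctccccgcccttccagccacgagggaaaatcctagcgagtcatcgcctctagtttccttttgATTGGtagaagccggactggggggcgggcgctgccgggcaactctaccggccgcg
DHCR7: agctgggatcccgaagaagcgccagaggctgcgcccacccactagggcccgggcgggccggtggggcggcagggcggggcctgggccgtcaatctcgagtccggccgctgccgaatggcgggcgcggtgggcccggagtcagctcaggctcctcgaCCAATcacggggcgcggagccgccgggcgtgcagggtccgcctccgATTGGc
ABCA1: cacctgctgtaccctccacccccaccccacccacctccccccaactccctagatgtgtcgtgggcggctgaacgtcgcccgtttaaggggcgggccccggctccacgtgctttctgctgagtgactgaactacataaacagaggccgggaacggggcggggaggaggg

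The regulators did not move as a block. Of the 5 sterol-sensing genes, 4 fell and 1 rose in clone 1, while 4 fell and 1 was not called in clone 2. SREBF2, the gene of the factor that chiefly drives cholesterol synthesis, read 398, 414 and 404 CPM in wild-type, 283, 276 and 279.7 in clone 1, 341, 342 and 329 in clone 2, and 334.5, 317 and 339.8 in the libraries labelled rescue. Clone 1 was lowest and wild-type highest, with no overlap among wild-type, clone 1 and clone 2. SREBF2 fell by 0.54 on the log2 scale in clone 1 (SE 0.0318, adjusted p = 3.75e-18) and by 0.27 in clone 2 (SE 0.0315, adjusted p = 1.45e-09). INSIG1, a retention protein of SCAP whose gene is itself a target of SREBP, read 93.2, 89.1 and 97.5 CPM in wild-type, 49.7, 44.6 and 46.3 in clone 1, 54.0, 56.0 and 56.8 in clone 2, and 54.8, 55.5 and 60.6 in the libraries labelled rescue. It fell by 1.00 in clone 1 (adjusted p = 8.53e-22) and by 0.75 in clone 2 (adjusted p = 7.25e-18). INSIG2, its relative, fell by 0.72 in clone 1 (adjusted p = 2e-12) and was not called in clone 2 at 0.05 (adjusted p = 0.513). SCAP, the escort protein, fell by 0.11 in clone 1 (adjusted p = 0.00432) and by 0.45 in clone 2 (adjusted p = 2.79e-14).

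SREBF1, which encodes the factor that chiefly drives fatty acid synthesis, changed in opposite directions in the clones. It read 94.7, 98.5 and 90.6 CPM in wild-type, 168, 163 and 151 in clone 1, 73.8, 71.5 and 68.4 in clone 2, and 113, 112 and 108.5 in the libraries labelled rescue. The 4 groups did not overlap. SREBF1 was 0.77 higher on the log2 scale in clone 1 than in wild-type (SE 0.0398, adjusted p = 4.96e-20) and fell by 0.40 in clone 2 (SE 0.0427, adjusted p = 8.04e-11). The direct difference, clone 2 minus clone 1, was -1.17 (adjusted p = 8.4e-26). The counts are per gene and do not separate its isoforms.

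Of the 3 sterol transport genes, ABCA1, which exports cholesterol to apolipoproteins, rose in both clones. It read 9.48, 9.19 and 9.44 CPM in wild-type, 38.0, 42.9 and 42.4 in clone 1, 14, 16.7 and 12.8 in clone 2, and 10.9, 9.45 and 11.5 in the libraries labelled rescue. All 3 libraries of each clone were above all 3 of wild-type, while those labelled rescue overlapped wild-type. The log2 fold change was 2.14 in clone 1 (SE 0.0752, adjusted p = 9.61e-26) and 0.62 in clone 2 (SE 0.0887, adjusted p = 9.85e-08), a difference between the clones of -1.52 (adjusted p = 1.02e-21). STARD4, a soluble sterol carrier, was -0.12 in clone 1 (adjusted p = 0.031), lost without some libraries as given above, and -0.07 in clone 2 (adjusted p = 0.253). NPC1, which moves cholesterol out of lysosomes, was not called in either clone, at -0.07 (adjusted p = 0.118) and 0.01 (adjusted p = 0.807).

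Of the 7 fatty acid genes tested, 7 fell in clone 1 and 6 in clone 2, with ACSS2 not called in clone 2. Their median log2 fold change was -0.36 in clone 1 and -0.62 in clone 2. SCD, the delta-9 desaturase that makes oleate, read 1012, 985 and 1015 CPM in wild-type, 782, 745 and 752 in clone 1, 646, 648 and 639 in clone 2, and 751, 725 and 777 in the libraries labelled rescue. Clone 2 was the lowest group, and clone 1 overlapped the libraries labelled rescue. SCD fell by 0.40 in clone 1 (SE 0.0302, adjusted p = 5.72e-15) and by 0.64 in clone 2 (SE 0.0304, adjusted p = 3.79e-21). ELOVL6, which extends palmitate to stearate, read 82.0, 82.4 and 82.2 CPM in wild-type, 63.2, 65.3 and 63.3 in clone 1, 48.0, 49.0 and 46.8 in clone 2, and 56.4, 55.6 and 58.4 in the libraries labelled rescue. The 4 groups did not overlap, and ELOVL6 fell by 0.36 in clone 1 (adjusted p = 1.48e-10) and by 0.78 in clone 2 (adjusted p = 7.97e-20).

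FASN, the multienzyme that makes palmitate, read 1613, 1669 and 1475 CPM in wild-type, 1493, 1538 and 1372 in clone 1, 1241, 1215 and 1202 in clone 2, and 1489, 1342 and 1359 in the libraries labelled rescue. The wild-type and clone 1 libraries overlapped, and clone 2 lay below all others. Its log2 fold change was -0.11 in clone 1 (SE 0.0389, adjusted p = 0.0124), the call that was lost without either of the libraries named above and in the DESeq2 Wald test (adjusted p = 0.0929). In clone 2 FASN fell by 0.38 (SE 0.039, adjusted p = 4.27e-11). ACLY, which splits citrate to acetyl-CoA, fell by 0.37 in clone 1 and by 0.28 in clone 2. ACSS2, which makes acetyl-CoA from acetate, had log2 fold changes of -0.16 in clone 1 (adjusted p = 0.0156, lost without the libraries named above) and -0.08 in clone 2 (adjusted p = 0.243).

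The desaturases FADS1 and FADS2, which act in turn on polyunsaturated fatty acids, are neighbours on chromosome 11 and overlap on opposite strands, by 4.79% of the exon bases of FADS1 and 4.44% of those of FADS2. FADS1, the delta-5 desaturase, read 702, 681 and 718 CPM in wild-type, 462, 454 and 453 in clone 1, 363, 355 and 368 in clone 2, and 377, 374 and 381 in the libraries labelled rescue. It fell by 0.62 in clone 1 (SE 0.0296, adjusted p = 3.37e-21) and by 0.95 in clone 2 (SE 0.03, adjusted p = 6.51e-27). FADS2, the delta-6 desaturase, read 1202, 1271 and 1219 CPM in wild-type, 1101, 1068 and 1056 in clone 1, 821.5, 781 and 796 in clone 2, and 844, 839 and 871 in the libraries labelled rescue. It fell by 0.20 in clone 1 (adjusted p = 4.23e-07) and by 0.62 in clone 2 (adjusted p = 9.25e-21), and for both genes the 4 groups did not overlap.

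**Figure D2:**
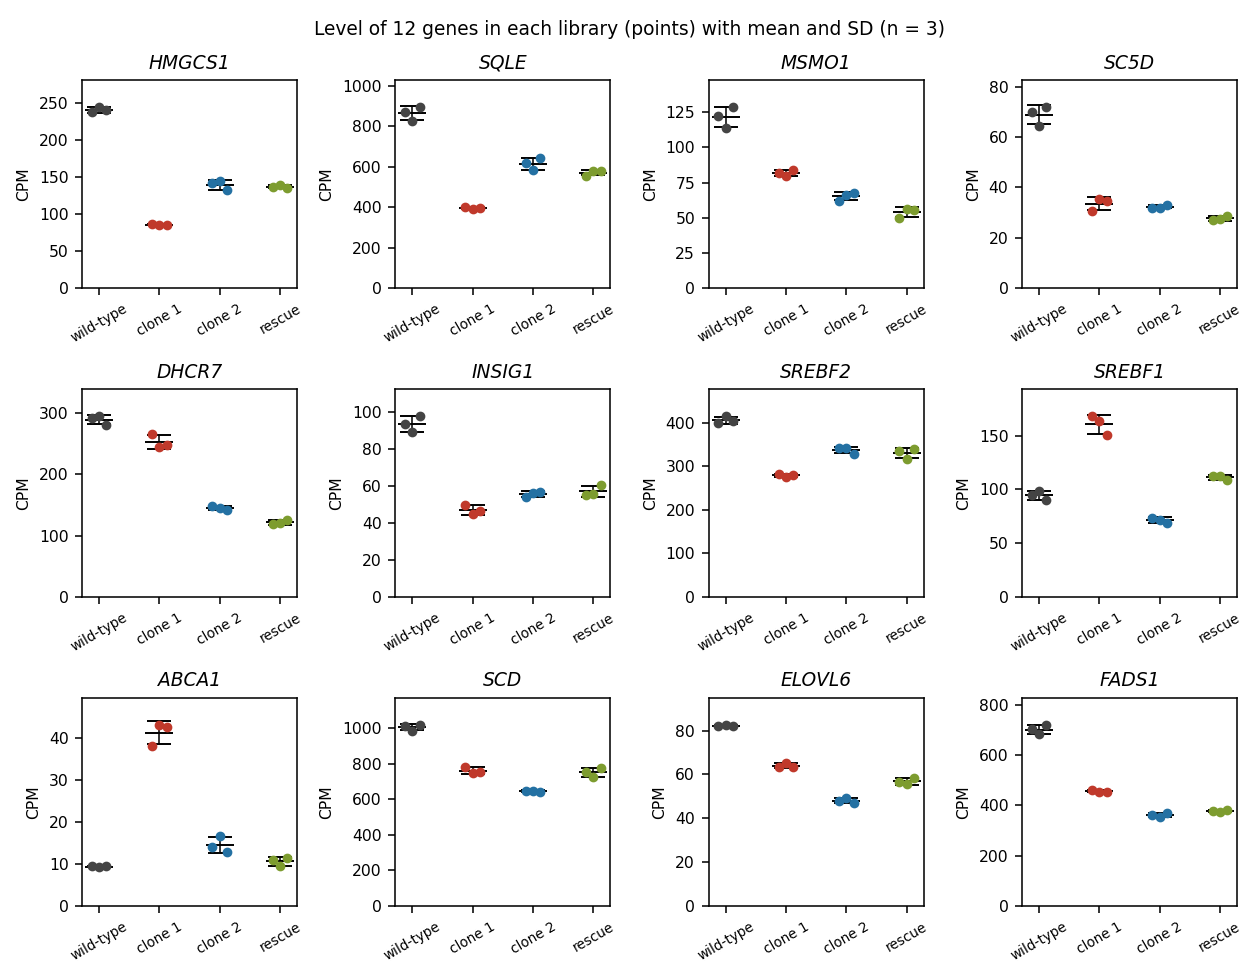
CPM of 12 genes in each of the 12 libraries, by group. Points are libraries, long bars are means and whiskers are the SD (n = 3), with each vertical axis starting at 0. HMGCS1 and SQLE are lowest in clone 1, DHCR7, SC5D and MSMO1 are lowest in the libraries labelled rescue, and SREBF1 and ABCA1 are highest in clone 1, at 161 and 41.1 CPM.

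Medians of the sterol genes were lower in clone 1 and those of the fatty acid genes lower in clone 2. The 18 sterol synthesis genes had a median log2 fold change of -0.52 in clone 1 and -0.39 in clone 2, while the 7 fatty acid genes had -0.36 and -0.62. The direct comparison of clone 2 with clone 1 tests that order gene by gene. In it 31.9% of all genes were called lower and 30.3% higher, and 38.8% and 33.2% of the genes with a mean of at least 5 CPM. Of the 33 genes, 12 were lower in clone 2, 12 were higher and 9 were not called. With upper quartile scaling 11 were lower and 17 higher, and EBP was not called (adjusted p = 0.205). Under that scaling 4689 of all 17084 genes were called lower and 6096 higher, and their median moved to 0.06. All 7 mevalonate genes had positive values, from 0.02 to 0.70, and 4 of them were called higher in clone 2. The 11 genes from squalene to cholesterol divided into 4 lower, 4 higher and 3 not called. Of the 7 fatty acid genes 5 were lower in clone 2, by 0.24 for SCD, 0.27 for FASN, 0.33 for FADS1, 0.42 for ELOVL6 and 0.43 for FADS2. ACLY was 0.09 higher in clone 2 (adjusted p = 0.013), a call lost without clone 1 replicate 3 (adjusted p = 0.15), clone 2 replicate 1 (adjusted p = 0.13) or clone 2 replicate 2 (adjusted p = 0.0683), and ACSS2 was not called at 0.08 (adjusted p = 0.231). CYP51A1, not called at -0.21, was called lower in clone 2 without clone 2 replicate 3 (adjusted p = 0.0457).

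The same medians were taken without the 5 genes on chromosome 11. The 15 other sterol synthesis genes had medians of -0.57 in clone 1 and -0.38 in clone 2, and the 5 other fatty acid genes -0.36 and -0.38. These separate medians thus lay further apart for the sterol genes and closer together for the fatty acid genes. In the direct comparison the medians, clone 2 minus clone 1, were 0.08 for the sterol and -0.27 for the fatty acid genes with chromosome 11, and 0.31 and -0.24 without it. Gene by gene, the fatty acid difference therefore changed little. There, 8 of those 15 sterol genes were higher in clone 2 and 2 lower, while 3 of the 5 fatty acid genes were lower and 1 higher. No test was made of the difference between the lists.

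Chromosome 11 holds DHCR7 (chr11:71428193-71452868), SC5D (chr11:121292453-121308694), FADS1 (chr11:61799625-61829318), FADS2 (chr11:61792980-61867354) and TM7SF2 (chr11:65111845-65116384), in hg38. Genes of the whole chromosome were lower in clone 2. The 711 genes of chromosome 11 with a mean of at least 1 CPM had a median log2 fold change of -0.60 against wild-type in clone 2, with 88.9% below 0, and of -0.02 in clone 1, with 51.8% below 0. For the 12854 genes of the other chromosomes the median was 0.00 in clone 2 and -0.02 in clone 1. In the libraries labelled rescue against wild-type the chromosome 11 median was -0.55.

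The 5 genes sat differently against that level. With the chromosome median taken off, the values in clone 2 were -0.49 for SC5D, -0.40 for DHCR7, -0.36 for FADS1, -0.04 for TM7SF2 and -0.02 for FADS2. The genes within 5 Mb of each member gave like levels in clone 2, with medians of -0.53 for 105 genes around DHCR7, -0.61 for 75 around SC5D, -0.52 for 181 around FADS1, -0.53 for 184 around FADS2 and -0.48 for 195 around TM7SF2. In clone 1, where the chromosome stood near 0, SC5D kept -1.02 and FADS1 -0.60 after the same subtraction, and DHCR7 -0.18, FADS2 -0.18 and TM7SF2 -0.08. Between the clones, subtraction turned the sign of FADS1 to 0.23, of FADS2 to 0.14 and of TM7SF2 to 0.02. SC5D, not called between the clones at -0.06, went to 0.50, and DHCR7 kept -0.24. Medians of the genes within 5 Mb, clone 2 minus clone 1, were -0.70 around DHCR7 and -0.51 around SC5D. They were -0.53 around FADS1, -0.54 around FADS2 and -0.55 around TM7SF2. DHCR7 itself was -0.80. Some other chromosomes that carry members also had medians below 0, by less than chromosome 11 in clone 2 and by more in clone 1. The median in clone 1 and clone 2 was -0.36 and -0.36 for chromosome 18 (NPC1), -0.21 and -0.22 for chromosome 8 (SQLE and FDFT1), -0.11 and -0.20 for chromosome 3 (SCAP), -0.06 and -0.20 for chromosome 4 (MSMO1 and ELOVL6) and -0.21 and -0.11 for chromosome 6 (ACAT2). The median of chromosome 5 (HMGCS1 and STARD4) was -0.10 in clone 1 and 0.02 in clone 2. With the chromosome median taken off, STARD4 in clone 1 went from -0.12 to -0.02 and SCAP from -0.11 to -0.0003. Why whole chromosomes were lower was not tested.

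**Figure D3:**
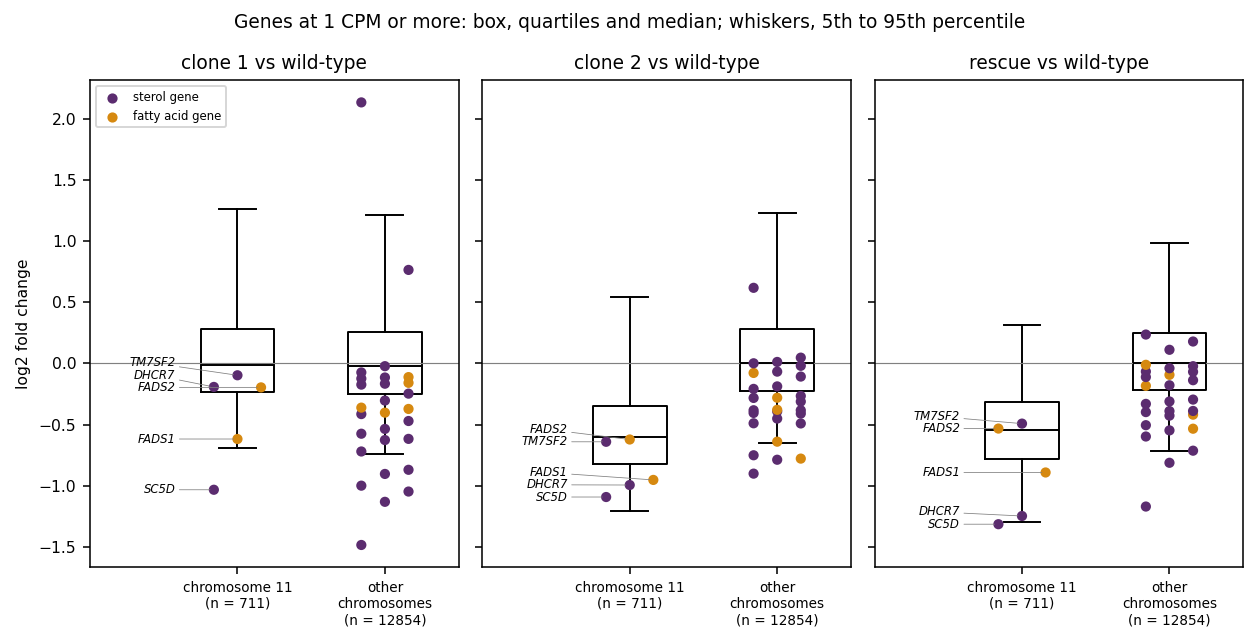
Log2 fold change against wild-type for genes at a mean of 1 CPM or more on chromosome 11 (n = 711) and on other chromosomes (n = 12854), in clone 1, clone 2 and the libraries labelled rescue. Boxes show quartiles and the median, whiskers the 5th to 95th percentile, and points the 33 genes. The chromosome 11 box lies below 0 in clone 2 and in the libraries labelled rescue, with medians of -0.60 and -0.55, and around 0 in clone 1.

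The libraries labelled rescue were compared with clone 2, their parent, to ask which genes differed between them. Of the 33 genes 9 were lower, 11 were higher and 13 were not called, where 19.9% of all genes were called lower and 19.3% higher (20.9% and 27.7% of the genes with a mean of at least 5 CPM). The median log2 fold change was 0.02, and the widest values were 0.64 for SREBF1 and -0.44 for ABCA1. The fatty acid genes were higher in 5 of 7 cases and lower in none, with all 7 values between 0.06 and 0.24. ELOVL6 rose by 0.24 on the log2 scale (adjusted p = 8.2e-06), SCD by 0.22 (adjusted p = 1.34e-07), FASN by 0.20 (adjusted p = 7.95e-05), ACLY by 0.19 (adjusted p = 8.2e-06) and FADS2 by 0.09 (adjusted p = 0.0168), a call lost with upper quartile scaling (adjusted p = 0.0959). FADS1 at 0.06 (adjusted p = 0.109) and ACSS2 at 0.07 (adjusted p = 0.375) were not called.

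The sterol synthesis genes divided, with 6 of 18 lower, 4 higher and a median of 0.00. All 6 that fell act after squalene, namely MSMO1 by 0.27, DHCR7 by 0.25, SC5D by 0.22, LSS by 0.16, EBP by 0.14 and SQLE by 0.11. Those that rose were ACAT2 by 0.09, PMVK by 0.11 and MVD by 0.14 in the mevalonate pathway, and TM7SF2 by 0.15. HMGCS1 was not called at -0.02, with a 95% interval of -0.10 to 0.05, nor was INSIG1 at 0.04, with an interval of -0.06 to 0.13. SREBF1 rose by 0.64 (SE 0.0419, adjusted p = 4.72e-16) and SCAP by 0.12, while SREBF2 was not called at -0.03 (adjusted p = 0.497). INSIG2 fell by 0.23, ABCA1 by 0.44 (SE 0.0855, adjusted p = 5.85e-05) and NPC1 by 0.15. STARD4, MVK, IDI1, FDPS, FDFT1, NSDHL, HSD17B7 and CYP51A1 were not called, with values from -0.12 to 0.12.

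Most of these differences were small, and several rested on particular libraries or on the method. Leaving out 1 library at a time gave 6 to 9 genes called lower and 8 to 13 called higher. The ACAT2 call was lost without clone 2 replicate 1 or 2 or rescue replicate 2 or 3 (adjusted p from 0.066 to 0.17), and the PMVK call without clone 2 replicate 2 (adjusted p = 0.142) or rescue replicate 2 (adjusted p = 0.179). The SQLE call was lost without clone 2 replicate 1 (adjusted p = 0.0817), clone 2 replicate 3 (adjusted p = 0.178) or rescue replicate 1 (adjusted p = 0.124). The TM7SF2 call was lost without rescue replicate 2 (adjusted p = 0.0731) or 3 (adjusted p = 0.0628). Without clone 2 replicate 1, LSS (adjusted p = 0.0932) and NPC1 (adjusted p = 0.0505) were not called, EBP was lost without rescue replicate 3 (adjusted p = 0.0526) and INSIG2 without rescue replicate 1 (adjusted p = 0.058). MVK was called higher without clone 2 replicate 3 (adjusted p = 0.0196) or rescue replicate 3 (adjusted p = 0.0366), and FADS1 without clone 2 replicate 3 (adjusted p = 0.046). With upper quartile scaling 7 genes were called higher in place of 11, as ACAT2 (adjusted p = 0.168), PMVK (adjusted p = 0.139), TM7SF2 (adjusted p = 0.0672) and FADS2 (adjusted p = 0.0959) were lost. Among all 17084 genes 2776 were then called higher, in place of 3304. In the DESeq2 Wald test 8 were called higher, where 2894 of all genes were. Calls lost there were ACAT2 (adjusted p = 0.0649), PMVK (adjusted p = 0.0842) and TM7SF2 (adjusted p = 0.0508). With 1 CPM required in 3 libraries 9 were higher, where 3213 of 14581 genes were. With only the groups compared 9 were higher, where 3132 of 16272 were. With no filter 14 were higher, where 3904 of 21569 were, and SQLE was lost (adjusted p = 0.0625).

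**Figure D4:**
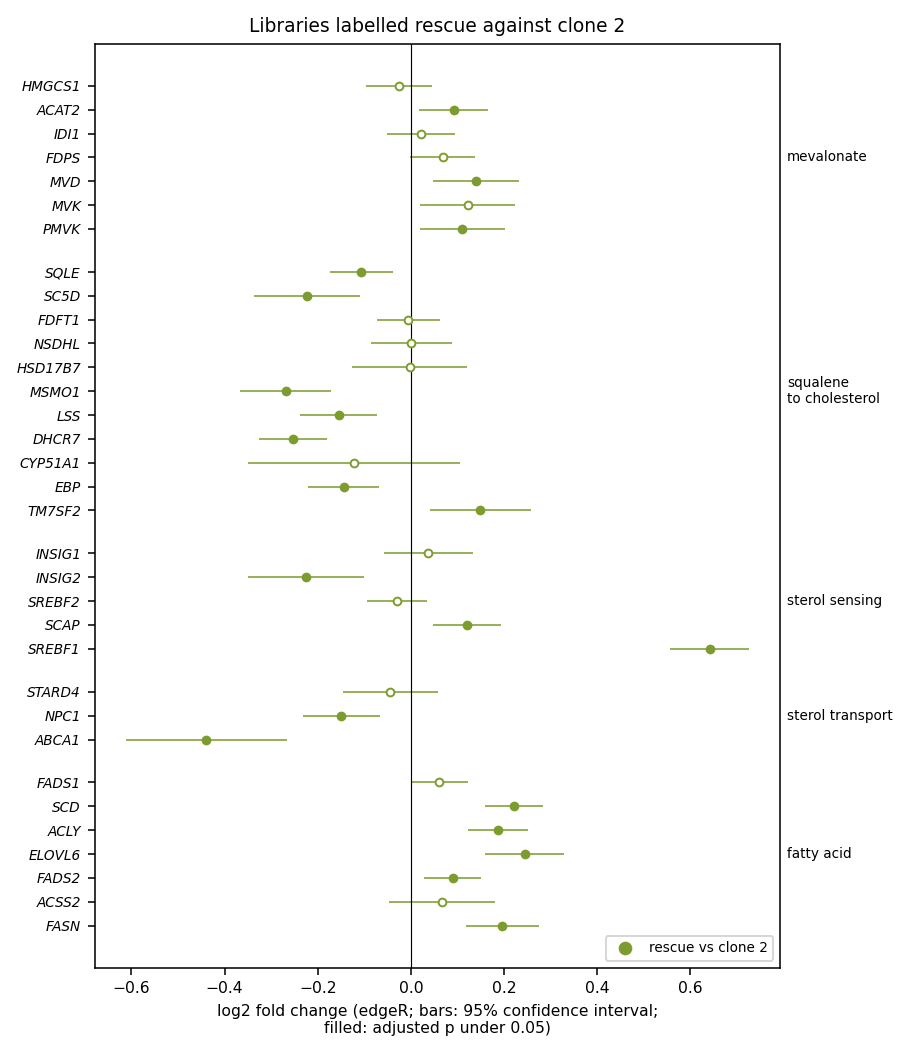
Log2 fold change of the 33 genes in the libraries labelled rescue against clone 2, by role. Points are edgeR estimates, bars are 95% confidence intervals and filled points have an adjusted p under 0.05. The 7 fatty acid genes lie between 0.06 and 0.24, and SREBF1 stands apart at 0.64.

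Against wild-type, the libraries labelled rescue had 24 of the 33 genes lower, 2 higher and 7 not called, where 29.9% of all genes were called lower and 28.5% higher (39.1% and 30.4% of the genes with a mean of at least 5 CPM). Their median log2 fold change was -0.39. SC5D was lowest at -1.31 (adjusted p = 5.43e-24), followed by DHCR7 at -1.25 (adjusted p = 1.46e-28) and MSMO1 at -1.17 (adjusted p = 5.99e-24). SREBF1 was 0.24 higher than in wild-type (adjusted p = 3.18e-06), and ABCA1 was not called at 0.18, with a 95% interval of -0.01 to 0.37. ABCA1 was called higher without rescue replicate 2 (adjusted p = 0.0273) and with upper quartile scaling (adjusted p = 0.0337). STARD4, not called at -0.11, was called lower without wild-type replicate 2 (adjusted p = 0.0227) or rescue replicate 1 (adjusted p = 0.0455). STARD4 was also called lower with the replicate block (adjusted p = 0.0486), with limma-voom (adjusted p = 0.0474) and with TMM without chromosome 11 (adjusted p = 0.0191). PMVK was 0.11 higher (adjusted p = 0.0297), a call lost without wild-type replicate 1 (adjusted p = 0.148), wild-type replicate 3 (adjusted p = 0.102) or rescue replicate 2 (adjusted p = 0.203). The ACLY call at -0.09 was lost without wild-type replicate 2 (adjusted p = 0.109) and the INSIG2 call at -0.18 without rescue replicate 1 (adjusted p = 0.106). Upper quartile scaling also lost the calls of ACLY (adjusted p = 0.188) and INSIG2 (adjusted p = 0.059). This comparison shares its libraries with those above and adds no separate evidence.

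Per kilobase of annotated exon, the wild-type levels of the 33 genes ran from 0.826 CPM per kb for ABCA1 to 200.4 for SQLE. SQLE was followed by SCD at 187, FASN at 169, FADS2 at 112 and ACLY at 102, so that 4 of the 5 most abundant transcripts by this scale were of fatty acid genes. SREBF2 stood at 53.7 CPM per kb and SREBF1 at 11.8.

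Other genes of the pathways were counted from lists. Of 19 tested genes of sterol handling and SREBP processing, 4 fell and 10 rose in clone 1, and 9 fell and 6 rose in clone 2. Of all genes with a mean of at least 5 CPM, 40.8% fell and 31.5% rose in clone 1 and 41.5% and 29.6% in clone 2, so the clone 2 counts were near that background. TMEM97, the sigma-2 receptor that binds NPC1, had a log2 fold change of -0.62 in clone 1 and -0.43 in clone 2, and SPRING1, a cofactor of SREBP processing, of -0.42 and -0.57. The lysosomal genes LIPA and NPC2 rose by 0.47 each in clone 2 and by 0.36 and 0.23 in clone 1. NR1H3, which encodes LXR-alpha, rose from 4.26 ± 0.584 CPM in wild-type to 11.8 ± 0.929 in clone 1 (log2 fold change 1.45, adjusted p = 4.53e-14) and was not called in clone 2 at -0.13 (adjusted p = 0.464). Its difference between the clones was -1.57 (adjusted p = 8.66e-15). NR1H2, which encodes LXR-beta, was more abundant, at 29.8 ± 1.42 CPM in wild-type. Against wild-type NR1H2 rose by 0.36 in clone 1, by 0.44 in clone 2 and by 0.60 in the libraries labelled rescue. GRAMD1B, which carries cholesterol from the plasma membrane, rose by 0.52 in clone 1 and fell by 0.34 in clone 2. Both NR1H3 and GRAMD1B lie on chromosome 11, whose median was -0.60 in clone 2 and -0.56 between the clones. MYLIP, an LXR target, was not called in clone 1 at -0.09 (adjusted p = 0.199) or clone 2 at -0.05 (adjusted p = 0.507).

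The isoprenoid branches, which use farnesyl pyrophosphate for dolichol, ubiquinone and protein prenylation, had 5 of 13 genes lower and none higher in clone 1, and 6 lower and 1 higher in clone 2. The shares that fell were near the 40.8% and 41.5% of genes with a mean of at least 5 CPM. NUS1, a subunit of the dolichol-forming transferase, fell by 0.56 in clone 1 and by 0.36 in clone 2, and COQ2, which prenylates the ubiquinone ring, was not called in clone 1 at -0.01 (adjusted p = 0.932) and fell by 0.82 in clone 2. PDSS1, which makes the ubiquinone side chain, fell by 0.20 in clone 1 and rose by 0.23 in clone 2. Of 24 other fatty acid genes 10 fell and 9 rose in clone 1, and 11 fell and 6 rose in clone 2, shares close to those of all genes with a mean of at least 5 CPM. HSD17B12, the reductase of the elongation cycle, lies on chromosome 11 and fell by 0.64 in clone 1 and by 0.93 in clone 2. LPIN1, a phosphatidate phosphatase and SREBP target, read 31.7 ± 0.655 CPM in wild-type, against 15.2 ± 1.02 in clone 1 and 56.5 ± 0.309 in clone 2, a difference between the clones of 1.89 (adjusted p = 4.53e-29). FADS3, next to FADS1 and FADS2, read 51.3 ± 3.97 CPM in wild-type, against 105 ± 3.03 in clone 1 and 48.5 ± 2.86 in clone 2, with 21.6 ± 1.79 in the libraries labelled rescue. It rose by 1.05 in clone 1, was not called in clone 2 at -0.08 (adjusted p = 0.219), and fell by 1.17 in the libraries labelled rescue against clone 2.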

How the data were processed

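Column-purified RNA went into a stranded mRNA library kit, per the labels' protocols. The submitters' processing notes name FastQC, STAR and the hg38 genome. The table deposited by the authors holds raw counts of reads for each gene and library under Ensembl identifiers. How reads were assigned to genes, and with which strand setting, is not stated in these sources. Symbols were matched for 20717 of 21569 identifiers, and GENCODE 29 gave hg38 positions for 20825.

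The counts were fitted in edgeR 4.0.16 (R 4.3.3) after TMM scaling and a filter by group with a minimum count of 10. The model had a mean for each group over the 12 libraries, which leaves 8 residual degrees of freedom, and the quasi-likelihood test was used for 5 comparisons. The biological coefficient of variation was 2.95% in common. Calls were made below 0.05 after Benjamini-Hochberg adjustment over the 17084 genes tested. The procedure was run on simulated counts with few changed genes and no shift of whole chromosomes. These settings differ from the data, and no result here rests on that run. The 34 genes, the other lists and the tests were chosen with earlier results of these data known, and the share among genes of at least 5 CPM, the 5 Mb neighbours and the promoter motifs were added in this work. Values per library are given for HMGCS1, SREBF1, SREBF2, INSIG1, SCD, FASN, DHCR7, SC5D, FADS1 and FADS2, and for the 3 called sterol genes and 2 called fatty acid genes with the largest change in each comparison. In each other list up to 4 called genes of largest change per comparison could be named. MYLIP and NR1H2 were named after their values were seen. The result of 1 gene that the rule names is not reported here.

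Pairs within a group gave a chi-square of 1.54 to 3.16 per degree of freedom, so no library was merely a second draw of reads from another. This check does not tell separate cultures from libraries made from the same RNA. Deviations from the group means correlated between same-numbered libraries of clone 1 and clone 2 (r of 0.135, 0.21 and 0.197), while every other pair of groups had at least 1 of the 3 at or below 0.1. The highest same-numbered value was 0.269, for replicate 3 of wild-type and clone 2. Differently numbered libraries reached 0.175, for clone 2 replicate 2 with rescue replicate 1. The numbers were taken to pair clone 1 and clone 2 on that check alone, which therefore does not settle a pairing. A shared day or batch is not named in the labels. Alternatives were DESeq2 1.42.0 size factors or its Wald test, limma 3.58.1 voom, upper quartile scaling, TMM without chromosome 11, other filters, only the groups compared, a replicate block, leaving out each library, a fold of at least 1.5, and subtraction of each chromosome's median.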

Additional observations from a re-analysis of the deposited data

Results flagged for a closer look

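The clones differed from each other in 24 of the 33 genes by the edgeR test of clone 2 against clone 1, so that for these genes their effects against wild-type differed. Over all genes tested 31.9% were called lower and 30.3% higher in that comparison, and 38.8% and 33.2% of those with a mean of at least 5 CPM, so the count is near the background. On the log2 scale, clone 2 minus clone 1, the largest differences were -1.52 for ABCA1, -1.17 for SREBF1, -0.80 for DHCR7 and 0.77 for INSIG2. Among sterol synthesis genes the difference was positive for HMGCS1 (0.70), SQLE (0.64), HSD17B7 (0.60), ACAT2 (0.56), FDFT1 (0.49), IDI1 (0.49), FDPS (0.36) and NSDHL (0.31), and negative for TM7SF2 (-0.54), MSMO1 (-0.33) and EBP (-0.12, not called with upper quartile scaling). Among the regulators it was 0.27 for SREBF2, 0.25 for INSIG1 and -0.34 for SCAP. Among fatty acid genes it was -0.43 for FADS2, -0.42 for ELOVL6, -0.33 for FADS1, -0.27 for FASN, -0.24 for SCD and 0.09 for ACLY. Of these genes DHCR7, TM7SF2, FADS1 and FADS2 lie on chromosome 11, whose median difference between the clones was -0.56.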

How the results depend on the processing

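Requiring a fold of at least 1.5 left 11 genes lower in clone 1 and 10 in clone 2. It left 0 lower and 1 higher in the libraries labelled rescue against clone 2, 7 lower and 0 higher in those libraries against wild-type, and 3 lower and 4 higher in clone 2 against clone 1. The share of all genes that met this fold rule is not given here, so these counts have no background to be read against. Upper quartile scaling gave 7 higher genes for the libraries labelled rescue against clone 2, where 2776 of all 17084 genes were called higher. Against wild-type 1 gene was higher in place of 2 with TMM without chromosome 11, with no filter and in the DESeq2 Wald test, where PMVK was lost. Leaving out each library gave 25 to 27 lower and 2 to 2 higher genes in clone 1, 26 to 27 and 1 to 1 in clone 2, 6 to 9 and 8 to 13 in the libraries labelled rescue against clone 2, 24 to 24 and 1 to 2 in those against wild-type, and 12 to 13 and 11 to 12 between the clones. Taking off the chromosome median moved 61 of the 165 values by more than the spread between libraries. SQLE in clone 2, for example, went from -0.49 to -0.27. Among called values it reversed SCAP (-0.0015) in the libraries labelled rescue against clone 2. In those libraries against wild-type it reversed TM7SF2 (0.0552), NPC1 (0.16) and FADS2 (0.0147). Between the clones it reversed TM7SF2 (0.018), FADS1 (0.23) and FADS2 (0.14).

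The replicate block left 164 of 165 calls of single genes as they were. The exception was STARD4 in the libraries labelled rescue against wild-type (adjusted p = 0.0486), where 25 genes were then lower in place of 24. Clone 1 had 27 lower and 2 higher genes with the replicate block, as without it. DESeq2 size factors changed no call of the 165. Under the scalings tried the median of all genes lay at most 0.0825 from 0 on the log2 scale. With 3 libraries of a single clone, no alternative separates the knockout from the clone. At this depth CYP51A1, near 8 CPM, had the widest interval of the 33 genes.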
